A study of Sus scrofa with 81 samples.

Results

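Collagen genes were taken as every gene whose symbol is COL, a number, A and a number, and 43 of the 28061 genes measured in pig skeletal muscle carried such a symbol. They were grouped by the kind of collagen they encode into 8 fibrillar, 8 basement membrane, 7 cartilage, 4 beaded filament, 7 fibril-associated and 4 transmembrane collagens and 5 of network, anchoring or other kinds. RNA sequencing covered pigs (Sus scrofa) of the breed labelled Landrance at 27 stages with 3 libraries each. E in a stage name was taken to mean gestation day and D postnatal day, so that 15 stages (E33 to E105, 45 libraries) were prenatal and 12 (D0 to D180, 36 libraries) postnatal. Treatment, genotype, sex, the muscle sampled and separate animals are not stated. The p-values and SEs of single genes below thus measure only the spread between libraries of the same stage. They leave out the differences between stages within a group. The p-values of chain ratios measure the spread between libraries or, for postnatal against prenatal, between stage means.

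Collagens are secreted proteins whose chains wind into triple helices. Fibrillar types form the cables of the connective tissue around muscle fibres, fibril-associated types sit on their surface, and type IV forms the sheet-like basement membrane that wraps each fibre and capillary, with type VI linking that sheet to the fibrils. Types II, IX, X and XI are best known from cartilage, and transmembrane types stay anchored in the cell surface.

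Levels are given in FPKM, which scales a gene's fragments by its length and by the library's total, so each is a share of its library and can be compared between genes per length. Read depth is unknown. Of the 43 genes, 18 reached 1 FPKM in all 81 libraries and 2, COL4A3 and COL10A1, in none. The 9 muscle fibre markers were above 0 in every library. So were all tendon and endothelial markers, so this cannot check the labelled tissue. One library stood apart in collagen: in replicate 2 of D0 the collagen genes summed to 8281 FPKM, against 2432 in replicate 1 and 2009.9 in replicate 3. Its tendon markers summed to 365 FPKM, against 87.2 and 74.9, and its cartilage collagens to 218 FPKM, against 24.3 and 25.4. In replicate 3 of D180 the collagen sum was 3165 FPKM, against 1479 and 1579 FPKM. Results around birth are therefore given with and without it.

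The mean collagen share was larger at every prenatal stage than at any postnatal one, although E33 and D9 differed by less than their SD. Together the 43 genes made up 1.36% ± 0.32 of all summed FPKM at E33 (SD, n = 3, as for the stages below), 3.16% ± 0.18 at E40, 3.25% ± 1.1 at E50 and 3.21% ± 0.17 at E75. The share was 1.57% ± 0.074 at E105, 1.11% ± 0.87 at D0 (0.607% without replicate 2), 1.33% ± 0.15 at D9 and lowest, 0.350% ± 0.048, at D80. Of the 43 genes, 40 had their highest stage mean before birth, 12 of them at E33 when COL10A1, always below 1 FPKM, is left out. The other 3 were COL6A2 and COL6A3, which peaked at D0 through replicate 2, and COL6A5, which peaked at D180. COL6A2 averaged 92.2 FPKM at D0 and 53.8 FPKM without that replicate, below the 75.6 FPKM of E40, and COL6A3 134 and 81.9 FPKM, below the 129.7 FPKM of E40.

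**Figure D1:**
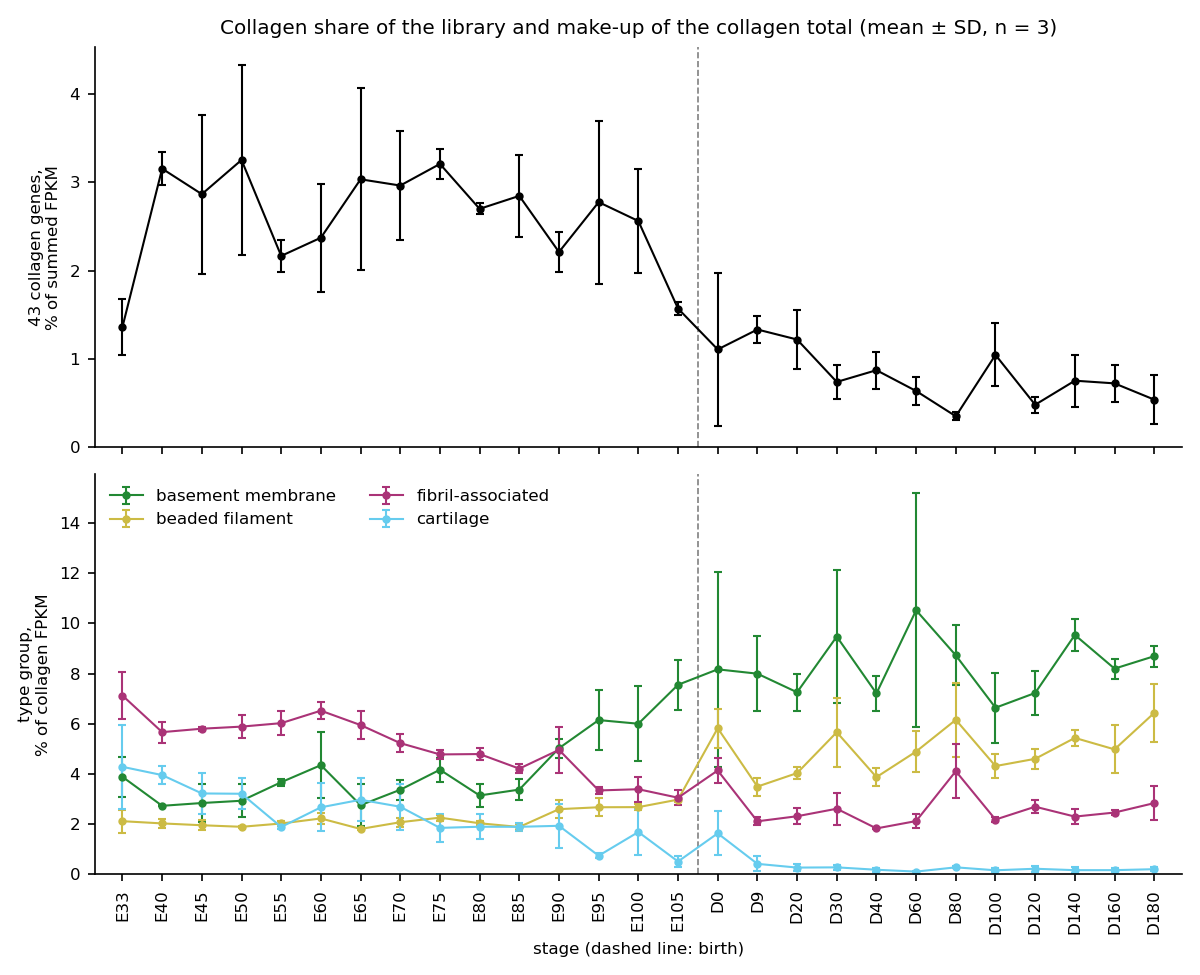
The upper panel plots the summed FPKM of the 43 collagen genes as a percentage of all FPKM at each stage, and the lower panel plots 4 type groups as percentages of the collagen total, each as mean ± SD of 3 libraries. The collagen share was 3.25% at E50 and 0.350% at D80, and the basement membrane and beaded filament groups took larger parts of the total after birth than before.

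Within this total, a few chains dominated at every age. COL1A2 (the α2 chain of type I) and COL3A1 (type III, found with type I in pliable tissue) together made up 71.4% ± 2.1 of collagen FPKM over the 45 prenatal libraries and 67.5% ± 4.2 over the 36 postnatal libraries (SD over libraries, as below). The fibrillar group as a whole held 85.7% ± 2.2 before and 83.5% ± 3.3 after birth. Basement membrane collagens went from 4.13% ± 1.6 to 8.30% ± 2.1 and beaded filament collagens from 2.21% ± 0.39 to 4.97% ± 1.1. Cartilage collagens went from 2.36% ± 1.2 to 0.338% ± 0.46 and fibril-associated collagens from 5.11% ± 1.2 to 2.64% ± 0.82.

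COL3A1 had the highest mean of the 43 genes, 2606 FPKM over the 27 stage means. Its stage mean peaked at 4389 ± 299.5 FPKM (SD, n = 3) at E40 and was lowest, 582 ± 164, at D80. COL1A2 averaged 2164 FPKM and peaked at E65 with 4810 ± 1978 FPKM, where the 3 libraries differed widely. COL1A1, the α1 chain of type I, averaged 582 FPKM and peaked later, at E85, with 1228, 1734 and 1678 FPKM in the 3 libraries. At E33 the same gene read 109, 163 and 91.4 FPKM, its lowest prenatal stage, while COL1A2 read 1709, 1793 and 1004 FPKM. The next genes were COL5A2 (312 FPKM on average), a chain of type V, which sits inside type I fibrils, COL4A1 (131 FPKM) and COL12A1 (116 FPKM).

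**Figure D2:**
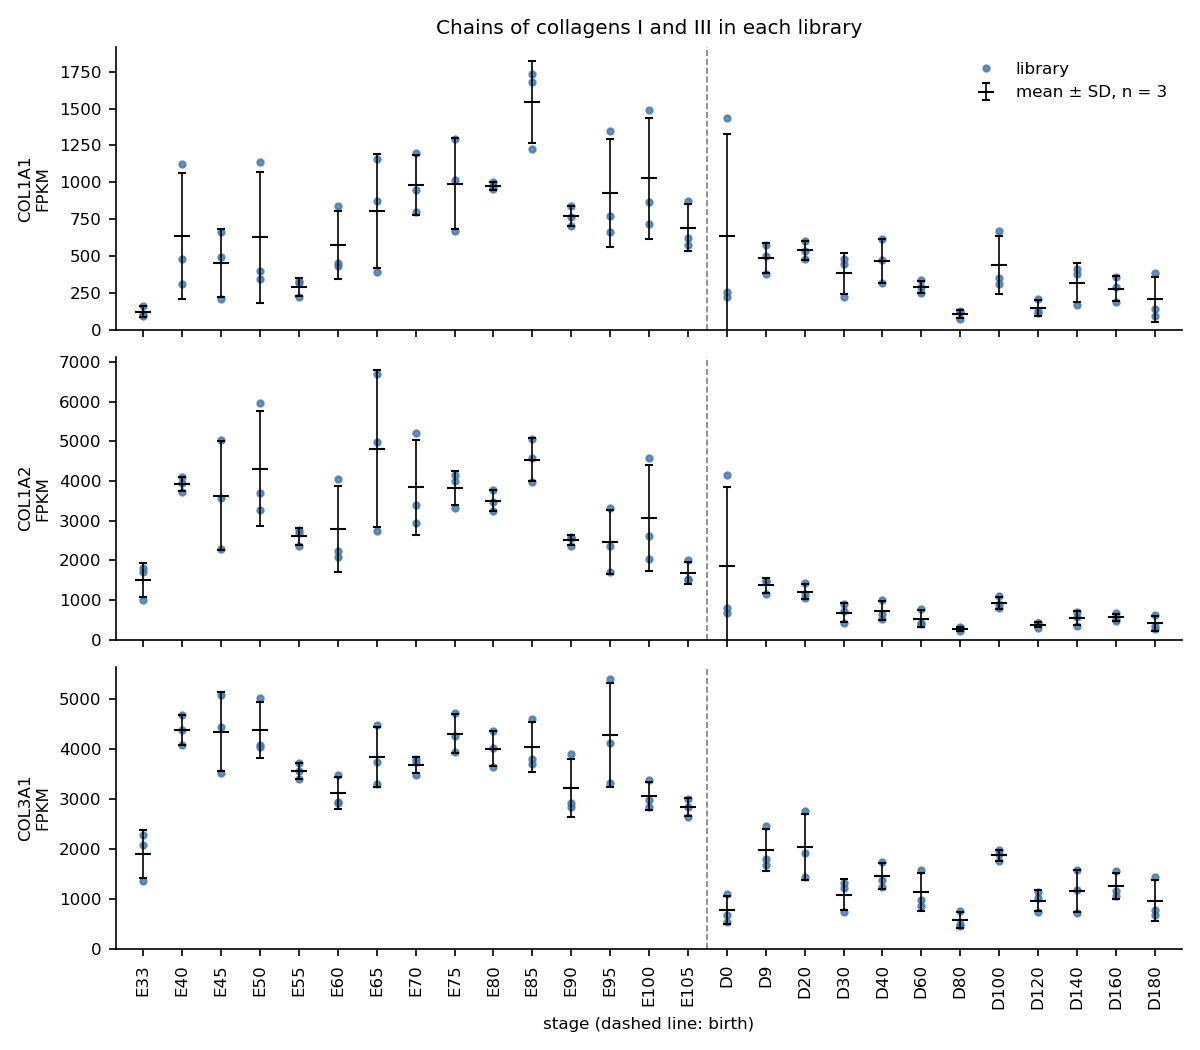
FPKM of COL1A1, COL1A2 and COL3A1 in each of the 81 libraries (points) with the stage mean ± SD of 3 libraries (bars), on linear axes from 0. COL1A1 peaked at E85, later than COL3A1 at E40, and replicate 2 of D0 is the single high library of that stage for both type I chains.

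Genes that neighbour each other on a chromosome in RefSeq's annotation of Sscrofa11.1, consulted only for gene names and order, peaked at the same stage. The chains of type IV lie in 3 head-to-head pairs: COL4A1 and COL4A2 both peaked at E95, and COL4A3 with COL4A4 and COL4A5 with COL4A6 all peaked at E105. COL3A1 and COL5A2, which lie tail to tail, both peaked at E40, and COL9A1 and COL19A1 at E33. A shared peak stage was thus seen in 5 of 5 neighbouring pairs, beside 13.4% of all 903 pairs of collagen genes; COL4A3 and COL4A4 were low, averaging 0.178 and 0.268 FPKM. Levels within a pair differed to varying degrees, as COL4A5 averaged 2.93 FPKM and COL4A6 0.462 FPKM, but COL4A1 131 FPKM and COL4A2 74.0 FPKM.

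**Figure D3:**
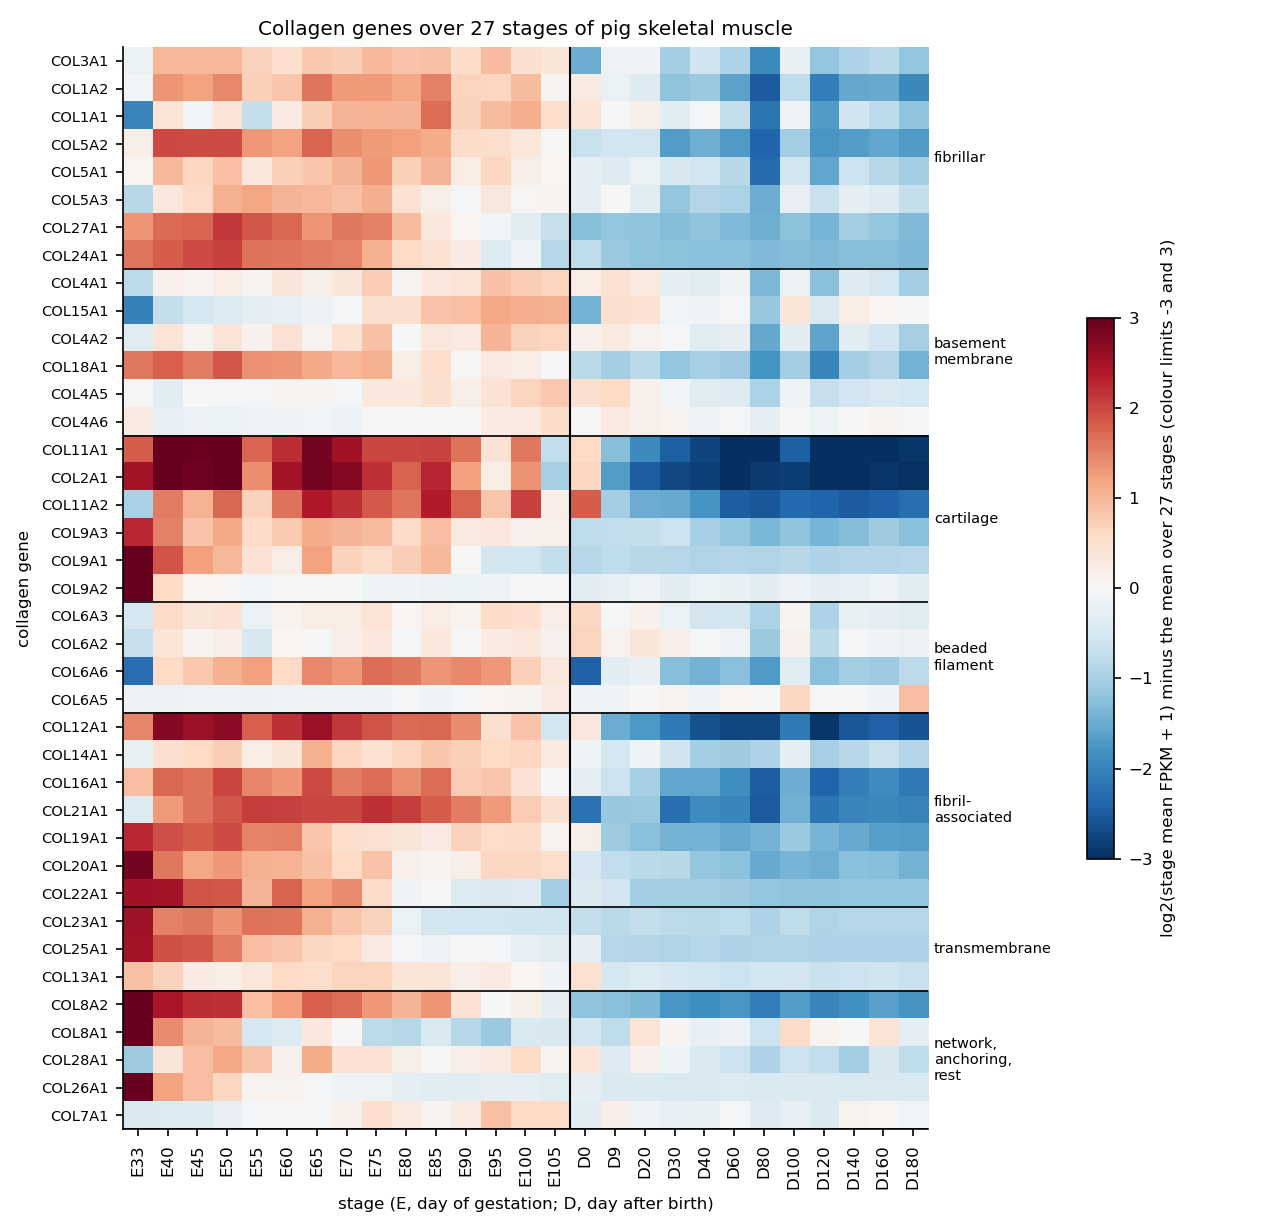
Each row is 1 of the 39 tested collagen genes, ordered by type, and each column 1 of 27 stages; colour gives log2(stage mean FPKM + 1) minus the gene's mean over the stages, with colour limits at -3 and 3. Cartilage and fibril-associated types run from high before birth to low after it, while COL15A1 is low at E33 and D0 and COL6A2 and COL6A3 have their highest means at D0, where replicate 2 is the high library.

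Changes were tested on log2(FPKM + 1) with limma over all 14220 genes that reached 1 FPKM in at least 3 libraries. A call needs a Benjamini-Hochberg adjusted p below 0.05 and a log2 difference of at least 1 in size. Of the collagen genes 39 were tested; COL4A3, COL4A4, COL10A1 and COL17A1 were too low. Another 4, COL4A6, COL6A5, COL9A2 and COL26A1, passed with 1 FPKM in fewer than 10 libraries, so for these the filter itself required some high stage. In the F test over the stages all 39 were called, beside 99.3% of all genes tested.

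After birth most collagen genes were lower. Postnatal against prenatal stages, 25 of the 39 were called lower, beside 22.6% of all genes, and 0 higher in limma, beside 4.02% (1 at an unadjusted p below 0.05, and 0 under median-ratio scaling). The median log2 difference of the 39 was −1.51, that of all genes −0.55. When libraries were rescaled so that the median gene stayed level (median-ratio scaling), which moved the median of all genes to 0.01, 20 collagen genes were lower, beside 6.62% of all genes, and 0 higher, beside 10.6%. Muscle fibre markers moved the other way, with 8 of 9 higher, and summed to 3318 to 37270.4 FPKM before and 19405 to 83084 FPKM after birth; ACTA1, skeletal actin, had medians of 1614 and 15710.1 FPKM. FPKM being shares, their part in the fall of the collagen genes was not tested. In bulk tissue, fewer cells of a type and less RNA per cell cannot be told apart.

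All 8 fibrillar genes were lower after birth, beside 22.6% of all genes, and 4 under median-ratio scaling, beside 6.62%. COL5A2 ran from 142 to 1002 FPKM before birth (median 494) and from 27.0 to 216 FPKM after (median 76.3). Its ranges overlapped slightly, and its log2 difference was −2.54 ± 0.075 (SE; adjusted p = 3.52e-39). COL1A2 had medians of 3266 and 656 FPKM (−2.24 ± 0.11, adjusted p = 1.05e-28) and COL27A1, a minor fibrillar type, of 9.67 and 0.621 FPKM (−2.27 ± 0.040). The calls of COL3A1 (−1.61), COL5A1 (−1.47), COL5A3 (−1.13) and COL1A1 (−1.09) were lost under median-ratio scaling, with log2 differences of −0.80, −0.68, −0.35 and −0.28, so relative to the median gene only COL1A2, COL5A2, COL24A1 and COL27A1 among the fibrillar genes were called.

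On the log2(FPKM + 1) scale, which understates changes of low genes, the largest falls were in cartilage and fibril-associated collagens. A low gene of another type, fibrillar COL24A1, had medians of 4.72 FPKM before and 0.0962 FPKM after birth. COL2A1, the chain of cartilage type II, ran from 2.12 to 160 FPKM before birth (median 36.0) and from 0 to 36.6 FPKM after (median 0.274), a log2 difference of −4.47 ± 0.15 (adjusted p = 2.20e-36). COL11A1, of type XI, had a median of 138 FPKM before and 4.13 FPKM after birth (−4.43 ± 0.16), so the muscle held far more of this cartilage type than of COL10A1, which was at 0 in 51 libraries. In all, 5 of 6 tested cartilage collagens were lower, also under median-ratio scaling, beside 22.6% of all genes as deposited and 6.62% rescaled. Cartilage and bone markers summed to 19.2 to 160 FPKM in prenatal and 1.56 to 213 FPKM in postnatal libraries, with 4 of 7 tested lower. Much of these sums was SPP1, with medians of 69.8 and 2.53 FPKM and up to 212 FPKM. Other medians before and after birth were 3.34 and 0.0823 FPKM for HAPLN1, 1.09 and 0.0229 for ACAN and 0.953 and 0.195 for SOX9. No marker of the list had a higher median after birth. MATN1, specific to cartilage, was at 0 in 41 of 81 libraries.

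All 7 fibril-associated genes were lower, beside 22.6% of all genes, and 6 under median-ratio scaling, beside 6.62%. COL12A1, abundant in tendon and in growing connective tissue, had medians of 172 and 8.76 FPKM (−3.86 ± 0.12, adjusted p = 1.57e-37). COL21A1 ran from 15.7 to 149 FPKM before and from 3.45 to 16.1 FPKM after birth, ranges that barely met (−3.40 ± 0.047, adjusted p = 1.99e-56). COL16A1 (−2.91 ± 0.082) and COL19A1 (−2.28 ± 0.059) followed, whereas COL14A1 (−1.22 ± 0.085) lost its call under median-ratio scaling, at −0.42. Tendon markers summed to 118 to 1209 FPKM before and 30.9 to 365 FPKM after birth, with 5 of 6 lower, and fibroblast markers to 563 to 1686 and 257 to 736 FPKM, with 5 of 7 lower (0 under median-ratio scaling) and 1 higher. Their part in the result was not tested.

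Among tested genes, 1 of 6 basement membrane and 1 of 4 beaded filament collagens were called lower, near the 22.6% of all genes. Under median-ratio scaling it was again 1 in each group, beside 6.62% of all genes. Of 6 tested basement membrane genes, COL18A1 alone was called lower, with medians of 25.5 and 4.62 FPKM (−2.13 ± 0.066). COL4A1 and COL4A2, the ubiquitous type IV chains, had log2 differences of −0.71 ± 0.065 and −0.87 ± 0.074, and COL15A1, found next to capillaries and muscle fibres, of −0.27 ± 0.059. Relative to the median gene these 3 read 0.09, −0.07 and 0.53. Of the type VI genes only COL6A6 was called (−1.97 ± 0.075), and COL6A2 and COL6A3 read −0.18 and −0.51, or 0.62 and 0.29 under median-ratio scaling. Their ranges before and after birth overlapped over most of their width, for COL6A2 30.4 to 93.6 and 19.5 to 169 FPKM.

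The transmembrane COL25A1, required for motor innervation of muscle in mice, had medians of 1.86 and 0.0551 FPKM (−1.54 ± 0.026) and COL23A1 of 2.56 and 0.180 FPKM (−1.45 ± 0.038). COL13A1, a component of the neuromuscular junction in mice, peaked at E33 with 2.36 ± 0.92 FPKM. Its medians were 1.32 FPKM before and 0.216 FPKM after birth. It was not called (−0.89 ± 0.038), on a scale that understates changes at such low levels. COL8A2, which forms networks with COL8A1, fell from a median of 10.8 to 0.518 FPKM (−2.99 ± 0.089), and COL8A1 read 2.83 and 3.75 FPKM (−0.16 ± 0.10, not called). COL7A1 of the anchoring fibrils and COL28A1 were not called.

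During gestation collagen genes changed in both directions. Late fetal (E95, E100 and E105) against early fetal libraries (E33, E40 and E45), 9 against 9, 4 of the 39 tested genes were higher, beside 6.07% of all genes, and 19 lower, beside 9.32%. Under median-ratio scaling these counts were 5 and 17, beside 7.06% and 5.91%. The median log2 difference was −0.53 for the collagen genes and −0.19 for all genes.

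COL15A1 rose most. It read 15.5, 47.4 and 57.7 FPKM (lowest, median and highest) in early fetal and 148, 163 and 214 FPKM in late fetal libraries. The groups did not overlap, and the log2 difference was 2.19 ± 0.125 (adjusted p = 1.07e-23). COL1A1 rose from a median of 312 to 769 FPKM (1.49 ± 0.28, adjusted p = 4.63e-06), with early libraries reaching 1124 FPKM and so overlapping the late ones. COL6A6 (1.12 ± 0.16) and COL7A1 (1.14 ± 0.075) were also higher, the latter from a median of 0.511 to 2.31 FPKM with no overlap. COL4A1, at 126 and 197.5 FPKM, did not overlap either, but its log2 difference of 0.95 ± 0.14 fell short of 1; under median-ratio scaling it was 1.15 and called. Endothelial markers moved with these genes: 6 of 8 were higher, and they summed to 48.2 to 123 FPKM in early and 208 to 270.4 FPKM in late fetal libraries. Their part in the result was not tested.

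The 19 genes that fell came from every type but the beaded filament collagens, and the 4 that rose from 4 types. COL22A1, known from the muscle-tendon junction, read 6.47 to 13.97 FPKM in early and 0.112 to 0.992 FPKM in late fetal libraries, without overlap (−2.93 ± 0.12, adjusted p = 1.86e-30). COL2A1 (−2.86 ± 0.32), COL8A2 (−2.75 ± 0.19) and COL9A1 of cartilage type IX (−2.60 ± 0.14) followed. In all, 5 of 6 tested cartilage, 5 of 7 fibril-associated, 3 of 8 fibrillar, 1 of 6 basement membrane, 2 of 3 transmembrane and 3 of 5 network and other genes were lower, beside the 9.32% of all genes. Of the cartilage calls, COL9A2 passed the filter only through the early fetal stages where it was high. COL26A1, of the network and other genes, reached 1 FPKM in 9 libraries and was highest at E33 (27.4 FPKM, prenatal median 0.271). Its high early stages thus helped it pass the filter. COL1A2 (−0.26 ± 0.22) and COL3A1 (0.02 ± 0.15) were not called, so the type I chains parted. COL5A2 (−1.04) and COL16A1 (−1.003) lie near the limit and lost their calls without single libraries, for example at −0.986 and −0.924 without replicate 1 of E33. Tendon markers summed to 240 to 1209 FPKM in early and 118 to 463 FPKM in late fetal libraries, 3 of 6 lower; their part was not tested.

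Several genes had their highest level at E33, a pattern picked after the values were seen. COL26A1 read 29.4, 34.4 and 18.5 FPKM at E33 and had a stage mean of 2.20 ± 0.50 FPKM at E40. COL9A2 read 8.13, 18.3 and 4.78 FPKM and COL9A1 11.2, 27.8 and 8.56 FPKM at E33, and COL8A1 35.7, 90.5 and 22.3 FPKM. In each of these genes replicate 2 was the highest of the 3 libraries and replicate 3 the lowest. COL15A1, by contrast, had its lowest stage mean there, 18.6 ± 3.5 FPKM.

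Early postnatal (D20, D30 and D40) against late fetal libraries, which also served in the comparison above, 16 genes were lower, beside 11.8% of all genes, and 0 higher in limma, beside 2.17% (1 at an unadjusted p below 0.05). The medians were −0.90 for the collagen genes and −0.47 for all genes. COL11A1 (−2.77 ± 0.34), COL2A1 (−2.73 ± 0.32), COL21A1 (−2.59 ± 0.099) and COL11A2 (−2.53 ± 0.30) fell most. COL21A1 ran from 38.7 to 79.1 FPKM late in gestation and from 4.51 to 15.3 FPKM after birth, without overlap. Under median-ratio scaling 10 genes were lower, beside 1.88% of all genes, and 1 higher, beside 6.25%: COL1A2, COL3A1, COL5A2, COL14A1, COL15A1 and COL18A1 lost their calls, and COL8A1, with medians of 2.41 and 4.72 FPKM, gained one (0.72 as deposited, 1.25 rescaled). With a pseudocount of 0.1, 25 genes were lower, a count for which no share of all genes is given.

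Around birth 4 collagen genes were lower at D0 than at E105 and higher again at D9. The share of all genes with both calls is not given here. Both comparisons use the same D0 libraries, so low D0 values favour both calls. D0 against E105, 3 libraries each, 6 of the 39 genes were lower, beside 9.38% of all genes, and 0 higher in limma, beside 2.78% (2 at an unadjusted p below 0.05). D9 against D0, which shares the D0 libraries, 4 were higher, beside 4.99%, and 5 lower, beside 5.44% (10.4% in either direction). After median-ratio scaling the D0 counts were 0 higher and 4 lower, beside 5.48% and 5.75% of all genes, and the D9 counts 4 and 4, beside 7.69% and 2.68%. The median log2 differences were −0.37 and 0.03, and those of all genes −0.20 and −0.17.

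COL3A1 read 3013, 2840.2 and 2653 FPKM at E105, 693, 1104 and 551 FPKM at D0 and 1805, 2471 and 1688 FPKM at D9. All 3 D0 libraries lay below all others, with log2 differences of −1.92 ± 0.25 (D0 against E105, adjusted p = 3.85e-09) and 1.38 ± 0.25 (D9 against D0, adjusted p = 5.98e-06). COL15A1 read 176, 166 and 152 FPKM at E105, 18.1, 45.5 and 23.1 FPKM at D0 and 127, 102 and 100.1 FPKM at D9. Its D0 libraries were again the lowest without overlap (−2.57 ± 0.22 and 1.99 ± 0.22). COL6A6 read 26.7, 31.3 and 21.6 FPKM, then 2.49, 3.84 and 2.85 FPKM, then 17.2, 20.8 and 12.2 FPKM (−2.76 ± 0.27 and 2.11 ± 0.27). COL21A1 read 41.0, 44.8 and 38.7 FPKM, then 4.59, 5.62 and 6.60 FPKM, then 16.1, 13.02 and 9.35 FPKM (−2.69 ± 0.17 and 1.05 ± 0.17). At D9 every library of all 4 genes was still below every E105 library. All 4 held both calls under median-ratio scaling and without replicate 2 of D0. The second call of COL21A1 was lost without replicate 1 of D0 (0.93) or replicate 1 of D9 (0.88). The other genes lower at D0 were COL8A2 (−1.07 ± 0.33) and COL20A1 (−1.02 ± 0.12), both without a call under median-ratio scaling; COL20A1 also lost its call without replicate 2 of D0 (−0.99).

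**Figure D4:**
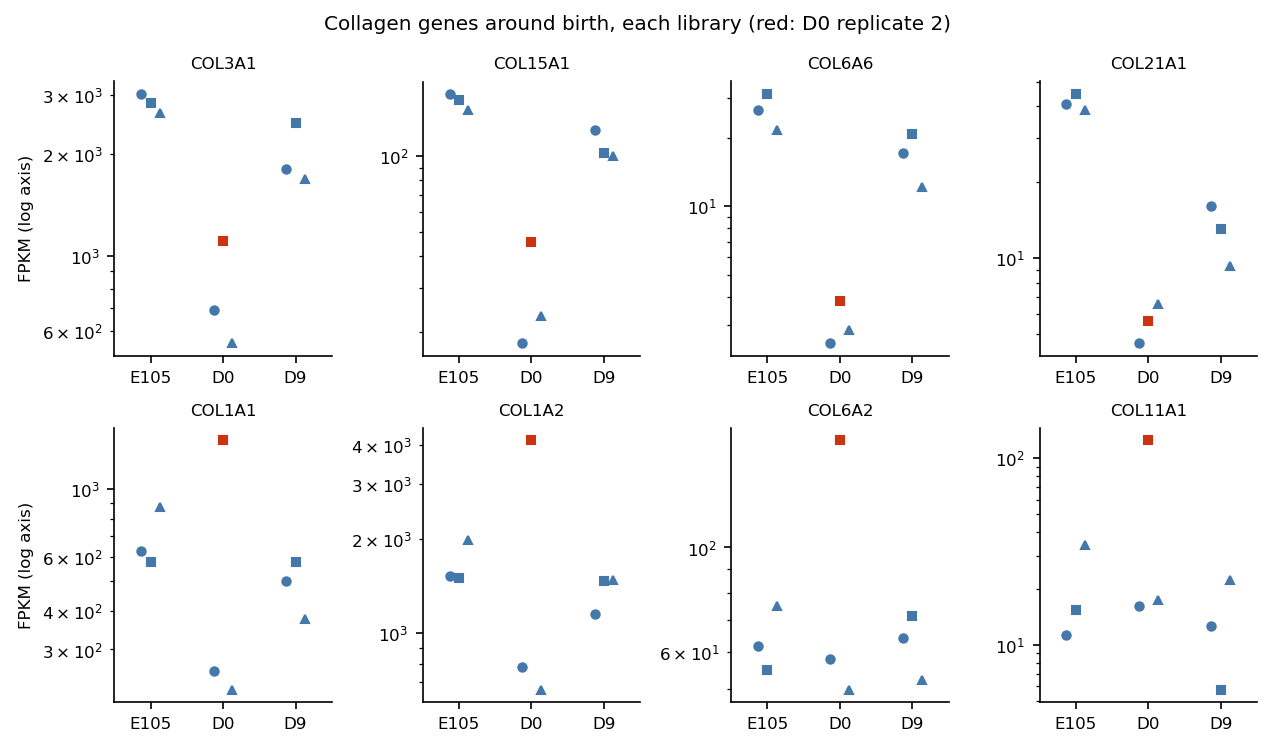
FPKM of 8 collagen genes in each library of E105, D0 and D9, on log axes; circles, squares and triangles mark replicates 1, 2 and 3, and replicate 2 of D0 is red. In the upper row all 3 D0 libraries lie below the E105 and D9 libraries, and in the lower row replicate 2 of D0 lies above every other library shown.

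The type I chains did not follow this pattern in every library. COL1A1 read 625, 578 and 873 FPKM at E105 and 254, 1435 and 222 FPKM at D0, and COL1A2 1526, 1508 and 1993 FPKM and 782, 4142 and 659 FPKM. Replicates 1 and 3 of D0 were below every E105 library and replicate 2 above, and neither gene was called (−0.65 ± 0.49 and −0.37 ± 0.39). Without replicate 2 both were called lower (−1.52 ± 0.49 and −1.21 ± 0.36), as were COL5A1, COL5A2, COL9A3, COL14A1, COL16A1 and COL18A1, and with COL20A1 lost the count of lower genes was 13. For fits without single libraries, here and below, no share of all genes is given, so such counts cannot be set beside it. One gene was higher at D0 without replicate 1 (COL2A1, 1.55) and 1 without replicate 3 (COL11A2, 1.45).

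Of the 5 genes lower at D9 than at D0, COL11A2 (−2.18 ± 0.52), COL2A1 (−1.52 ± 0.55), COL12A1 (−1.499 ± 0.45) and COL11A1 (−1.41 ± 0.59) rest on that library: COL11A2 read 5.86, 55.6 and 3.98 FPKM at D0, and without replicate 2 none of the 4 was called. The call of COL19A1 held without it, at −1.41 ± 0.23, but not without replicate 1 of D0 (−0.92); its D0 libraries read 5.61, 2.36 and 3.34 FPKM and its D9 libraries 1.06, 0.861 and 1.14 FPKM, without overlap. Without replicate 2 of D9, COL2A1 and COL11A1 lost their calls and 3 genes were lower, and COL11A1 also lost its call under median-ratio scaling.

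Markers of other cells also moved at D0. Endothelial markers summed to 270.4, 258 and 257 FPKM at E105, 72.9, 81.8 and 73.2 FPKM at D0 and 145, 148 and 127 FPKM at D9, with 7 of 8 lower at D0, beside 9.38% of all genes, and 2 of 8 higher at D9, beside 4.99%. Satellite cell markers summed to 78.8 to 84.95 FPKM at E105 and 18.1 to 29.6 FPKM at D0 (2 of 4 lower), and Schwann cell markers to 53.7 to 62.4 and 24.0 to 27.8 FPKM (3 of 6 lower). Fibroblast markers summed to 573 to 756 FPKM at E105 and 297 to 511 FPKM at D0 (3 of 7 lower, 1 higher), and pericyte and smooth muscle markers to 293 to 315 and 142 to 222 FPKM (2 of 7 lower). Their part in the dip was not tested. COL4A1, present in vessel walls, read 231, 163 and 187 FPKM at E105 and 162, 159 and 107 FPKM at D0 which did not overlap, and was not called (−0.45 ± 0.24).

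Later in life no collagen gene passed both limits. Late postnatal (D140, D160 and D180) against early postnatal libraries, 9 against 9, 0 of the 39 genes were called in either direction in limma, beside 0.788% of all genes higher and 1.49% lower (2.28% in either direction). Under median-ratio scaling the counts were also 0, beside 1.11% and 1.55%. For the looser limits that follow, no share of all genes is given. At an unadjusted p below 0.05, 3 were higher and 15 lower, and by the adjusted p alone 3 and 13. The largest of these was COL1A1, with medians of 479 and 287 FPKM (−0.89 ± 0.28, adjusted p = 0.00790), which passed the fold limit without replicate 3 of D30 (−1.01) or replicate 3 of D180 (−1.08). COL1A2 read −0.76 ± 0.22, COL4A2 −0.60 ± 0.16 and COL4A1 −0.56 ± 0.14.

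Ratios between chains within a library do not depend on library scaling. Of 7 ratios in 6 comparisons, 42 tests with adjusted p-values over them, the ratio of COL1A1 to COL1A2 was higher in late than in early fetal libraries and higher again in early postnatal ones. COL1A1 was below COL1A2 in 81 of 81 libraries, with ratios from 0.0639 to 0.730. The geometric mean was 0.110 in early fetal and 0.372 in late fetal libraries, which did not overlap (log2 difference 1.76, n = 9 and 9, two-sided exact permutation test, adjusted p = 0.000288). It was 0.545 in early postnatal libraries (exact permutation test against late fetal, adjusted p = 0.000768) and 0.498 in late postnatal ones (adjusted p = 0.493, exact permutation test). The 9 libraries of a group came from 3 stages, and the exact tests permuted libraries as if independent of stage. Besides COL6A1, 34 loci outside the symbol rule carry a collagen product name, 18 of them an α1(I) one with at most 4.41 FPKM on average. The means of these 18 summed to 11.5 FPKM, beside an average of 582 FPKM for COL1A1. Reads could have been split between these loci and COL1A1, which was not tested.

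COL5A1 to COL5A2, a fibril-nucleating pair, changed in the same direction, from a geometric mean of 0.243 over 15 prenatal to 0.505 over 12 postnatal stages (log2 difference 1.05, two-sided permutation test, adjusted p = 0.00021). COL12A1 to COL14A1, the chains of related fibril-surface collagens, went from 1.74 to 0.256 (−2.77, permutation test, adjusted p = 0.00021); for both ratios the raw p of 1e-05 was the smallest that 100000 permutations can give. Within gestation the latter ratio was 3.11 in early and 0.615 in late fetal libraries, without overlap (exact permutation test, adjusted p = 0.000288). COL3A1 to COL1A1 fell to 3.96 in late fetal libraries, by 1.48 on the log2 scale (exact permutation test, adjusted p = 0.00110), and was 4.16 at E105, 1.73 at D0 and 4.11 at D9, where 3 against 3 libraries cannot give a p below 0.1. Without replicate 2 of D0 these 2 log2 differences were −0.68 and 0.66, against −1.26 and 1.24 with it.

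The type IV and type VI chains moved less against each other. COL4A1 to COL4A2 was 1.71 before and 1.93 after birth (log2 difference 0.17, permutation test, adjusted p = 0.0176). COL6A1, which the table lists under a locus name and which was found by its RefSeq product name, read 1.26 times COL6A2 before and 1.12 times after birth (−0.17, permutation test, adjusted p = 0.00204). COL6A3 to COL6A1 read 1.33 and 1.18 (−0.17, permutation test, adjusted p = 0.0527).

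**Figure D5:**
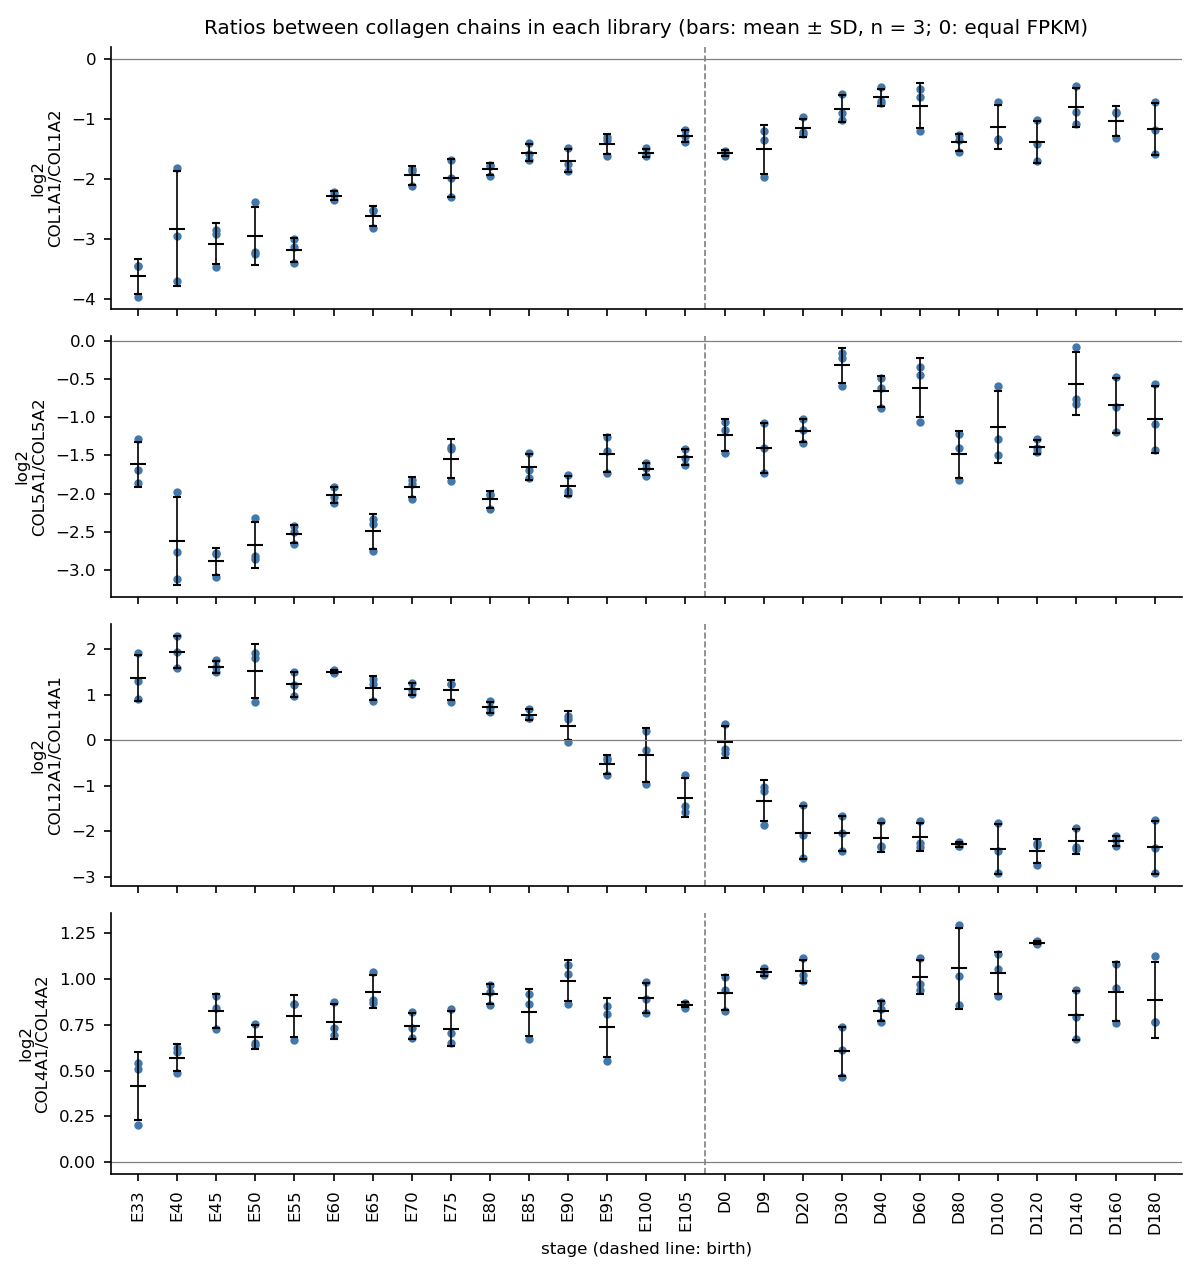
Log2 ratio of FPKM between 4 pairs of collagen chains in each library (points) with mean ± SD of the 3 libraries of a stage (bars); 0 marks equal FPKM. COL1A1/COL1A2 and COL5A1/COL5A2 were higher after birth than before, COL12A1/COL14A1 was lower, and COL4A1/COL4A2 moved by 0.17.

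Lists of genes that make, cross-link, cleave and sense collagen held calls of lower level after birth, to be read beside the 22.6% of all genes that were lower as deposited and the 6.62% under median-ratio scaling. Of 19 genes for chain modification and folding, 13 were lower (6 under median-ratio scaling), led by FKBP10, a collagen chaperone, with medians of 65.8 and 7.66 FPKM (−2.75 ± 0.076), and P3H4, part of a lysine hydroxylation complex (−2.39 ± 0.054). Of 13 processing and cross-linking genes, 8 were lower (2 rescaled), among them LOX, the cross-linking oxidase (−2.02 ± 0.095), and PCOLCE2, an enhancer of propeptide removal, was higher (1.58 ± 0.081, medians 1.39 and 6.45 FPKM). Of 13 tested genes of breakdown and its inhibitors 8 were lower (4 rescaled), led by MMP14, a membrane collagenase (−2.37 ± 0.068). Of 9 tested receptors 4 were lower (1 rescaled, with 1 higher), led by ITGA2 (−1.66 ± 0.080), and of 14 collagen-inducing signals 8 (1 rescaled), led by TGFB3 (−2.18 ± 0.070). The rescaled counts of receptors and signals lie near the share of all genes.

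At D0 against E105, where 9.38% of all genes were lower (5.75% rescaled), the calls in the same lists were as follows. Of 13 breakdown genes 6 were lower (3 rescaled) and 1 higher: FAP, a fibroblast surface protease, read 39.6 to 51.3 FPKM at E105 and 6.01 to 10.2 FPKM at D0 (−2.47 ± 0.15), and TIMP1, an inhibitor of metalloproteinases, 6.49 to 8.07 and 14.3 to 28.8 FPKM (1.25 ± 0.30). Of 19 chain modification genes 3 were lower (0 rescaled), of 9 receptors 2 (1 rescaled), of 14 signals 3 (2 rescaled) and of 13 cross-linking genes 0 in limma, with 4 lower and 2 higher at an unadjusted p below 0.05. Late against early postnatal, CCN2, a growth factor that induces collagen, was higher (1.49 ± 0.20, medians 5.97 and 18.3 FPKM), while LOX (−1.001 ± 0.20, or −0.96 and not called under median-ratio scaling) and TIMP1 (−1.08 ± 0.17) were lower.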

How the data were processed

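RNA of 81 skeletal muscle libraries was isolated with TRIzol and sequenced strand-specifically in pairs after ribosomal RNA depletion, per the labels' protocols. The authors deposited FPKM per gene, a unit already divided by transcript length and library total. The submitters' processing notes list the trimmer Trimmomatic, the aligner HISAT2 (2.0.4) and the assembler StringTie (1.3.1). The genome build is not given in the sources used here. Counts are not given, so no counting interval was computed. Of 28325 entries, 264 repeats were dropped.

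Values were fitted as log2(FPKM + 1) with limma 3.58.1 (R 4.3.3) as 27 stage means over all libraries, with trended moderated variances and two-sided tests; this scale understates changes of low genes. Genes under 1 FPKM in all but 2 or fewer libraries were removed (13841). Ratios and figures used Python 3.11.15. The code was tested on simulated data. Alternatives varied pseudocount, filter, scaling, variance trend, block, libraries and fold limit.

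Collagen genes, lists and tests were chosen with earlier results of these data known. Named genes were the 4 most abundant of each type, the 4 with the largest called change per direction and comparison, and preset chains; of other lists, up to 4 called genes with the largest change. COL4A5, COL4A6, COL5A3, COL9A2, COL20A1, COL24A1 and COL27A1 fall outside this rule and were named after their values were seen. The cartilage and bone markers were likewise named after their values were seen.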

Additional observations from a re-analysis of the deposited data

How the results depend on the processing

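With a pseudocount of 0.1, 25 genes were lower early postnatal against late fetal (16 in the report), 1 higher and 13 lower at D0 against E105 (0 and 6), 9 lower at D9 against D0 (5) and 4 lower late against early postnatal (0). Median-ratio scaling gave 1 higher and 10 lower early postnatal, and quantile normalisation 1 higher. Fitting only the libraries compared gave 2 lower at D9; this fit could not differ for postnatal against prenatal, which uses all libraries. By adjusted p alone, 1 was higher postnatal against prenatal, 9 higher late fetal, 1 higher and 33 lower early postnatal, 2 higher and 12 lower at D0, 8 lower at D9, and 3 higher and 13 lower late postnatal. Leaving out 1 library at a time gave 0 to 1 higher and 4 to 13 lower at D0, 1 to 6 lower at D9, and 0 to 1 lower late postnatal. Apart from median-ratio scaling, shares of all genes under these alternatives are not given, so the counts cannot be set beside them. The causes were not tested. Under these alternatives 0 called gene values or ratios changed sign, while 42 uncalled gene values and 5 uncalled ratios did in at least 1 of them.

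The labels do not say whether replicate numbers pair libraries. Deviations of same-numbered libraries in different stages had a median correlation of −0.0004 (−0.487 to 0.412), and those of different-numbered libraries of −0.0017. A median cannot show pairing limited to some stages. With a replicate block, COL3A1/COL1A1 late against early postnatal kept its log2 difference of 0.48 but had an adjusted p of 0.0536 (exact permutation test; 0.0356 without). With a pseudocount of 1 in both chains, COL6A3/COL6A1 postnatal against prenatal was −0.17 at an adjusted p of 0.0489 (permutation test). Depth is unknown, and with 3 libraries a stage the comparisons around birth rest on few values.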
